A study of Homo sapiens with 6 samples.

Results

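Aminoacyl-tRNA synthetases are the enzymes that join each amino acid to its transfer RNA, and they were followed here in paclitaxel (PTX)-resistant breast cancer stem-like cells with and without knockdown of the long noncoding RNA LINC00115. The genes were taken by name: the 1-letter code of an amino acid followed by "ars", with a 1 or 2 at the end where there was one, together with Eprs, Farsa, Farsb, Fars2 and Tarsl2. This rule used no measured value. It found 38 of the 22989 genes in the count table, of which 19 encode cytosolic enzymes, 17 mitochondrial enzymes and 2 (Gars and Kars) enzymes that serve both compartments.

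Cells keep separate sets of synthetases for the cytosol and for mitochondria, and all of them are encoded in the nucleus. The enzymes fall into class I and class II by the fold of their catalytic domain, and several cytosolic ones are held together with scaffold proteins in the multisynthetase complex. When transfer RNAs run short of amino acids, the kinase GCN2 (Eif2ak4) phosphorylates eIF2alpha. Translation of the transcription factor ATF4 then rises, and ATF4 is known to activate genes for amino acid uptake, amino acid synthesis and many cytosolic synthetases.

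RNA-seq was performed on 6 libraries of MDA-MB-231 PTX-resistant BCSC (breast cancer stem cells), 3 labelled LINC00115 KD and 3 labelled WT. MDA-MB-231 cells derive from a human breast tumour of the triple-negative kind, so all libraries came from 1 line, and the labels give no separate cultures. The p-values therefore measure the spread between these libraries, which may be technical. The LINC00115 KD libraries carry the names sh115-1 to sh115-3, and their labels number them as replicates. The paper's legend for its RNA-seq comparison names 1 short hairpin RNA for the knockdown. The differences below may therefore rest on 1 hairpin, although the hairpin used in each library is not stated. The paper's knockdown experiments used a control shRNA, whereas these controls are labelled WT, and whether they carried a hairpin is not stated. If they carried none, an effect of carrying a hairpin cannot be told apart from that of lower LINC00115.

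The libraries held between 36979221 and 38799331 counts, and the synthetases had between 173 and 18230 counts in each, and the fewest counts were those of mitochondrial enzymes. LINC00115 has 0 rows under its name in the table, so its knockdown could not be checked. Gene symbols were in mouse style, with 5777 Gm or Rik names, which belong to mouse gene annotation, and 1391 of these (10.3% of the genes tested) had enough counts to be tested. The table therefore appears to have been counted on mouse genes, whereas the labels name a human line and a human genome. Why they differ is not stated, and every level and fold change below is given for the symbol in the table. Human positions, exon overlaps and promoter sequences below are those of the human namesakes. They apply to these values only if the counts are of the human genes after all. Of the 7 markers of the line and sort, Vim, Cd44, Fn1 and Axl were abundant in every library, whereas the mesenchymal factor Zeb1 had 23 to 64 counts, and Aldh1a3, a breast cancer stem cell marker, had 0 to 4 counts and Aldh1a1 had 8 to 52. Genes of other tissues differed between the groups. The summed level of 8 lung markers was 1.01 to 1.17 CPM (normalized counts as a share of the library total) in the WT libraries and 70.3 to 81.3 in the LINC00115 KD libraries, and all 7 that could be tested were higher. That of 7 kidney markers was 8.29 to 8.56 against 21.4 to 25.5 CPM, with 4 of 5 tested higher and Cubn lower. Cubn made up most of the WT sum, with a mean of 8.28 CPM. Kap had 0 counts in the WT libraries and 311 to 466 in the KD libraries, and Umod 0 and 76 to 112. The summed level of 8 leukocyte markers was 71.8 to 85.8 against 144 to 159.6 CPM, with 4 of 5 tested higher. Cd3e had 0 counts in all libraries and Ptprc had 5 to 13. Most of the leukocyte sum came from Cd68, which did not pass (means of 42.8 and 47.2 CPM), and S100a8 (33.0 and 95.2 CPM). For 5 luminal epithelial markers the sum was 598.5 to 609.3 against 960.7 to 1011 CPM, with Epcam at 0 to 5 counts. All 4 tested were higher, with log2 fold changes of 0.67 (Krt8), 0.87 (Krt18), 1.87 (Esr1) and 3.71 (Cdh1). Cdh1 had few counts, 1 to 3 in WT and 22 to 31 in KD. The part of these tissue markers in the synthetase results was not tested, and in such bulk samples a different mix of cells cannot be told apart from a different level per cell.

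Most synthetase genes were higher after LINC00115 KD. Among the 38 genes, 27 were higher at an adjusted p-value under 0.05 (edgeR quasi-likelihood test, adjusted over all 13497 genes tested), 5 were lower and 6 did not pass. The higher genes made up 71.1% of the synthetases, beside 36.7% of all genes tested, and the lower genes 13.2%, beside 36.7%. Among all genes with a mean of at least 100 counts, a level that every synthetase reached, 40% were higher and 39% lower. The median log2 fold change was 0.34 for the synthetases (quartiles 0.12 and 0.64) and −0.0061 for all genes tested (quartiles −0.47 and 0.44).

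Changes were moderate in size. Mars2 and Yars2 were the 2 genes higher by more than 2-fold, a size that 10.2% of all genes tested reached upwards and 9.98% downwards, and 0 synthetases were lower by as much. Just under this limit lay Wars2 and Nars2, each with a log2 fold change of 0.97, and the number over 2-fold ranged from 1 to 3 when single libraries were left out. The 3 LINC00115 KD libraries all lay above the 3 WT libraries for 29 synthetases and all below for 5, where 37.8% of all genes tested were separated upwards and 37.8% downwards. Hars, Kars, Aars2 and Rars2 overlapped between the groups. Added together, the synthetases took 4500, 4461 and 4551 CPM in the WT libraries and 5459, 5531 and 5524 CPM in the LINC00115 KD libraries, a sum 22.2% higher.

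**Figure D1:**
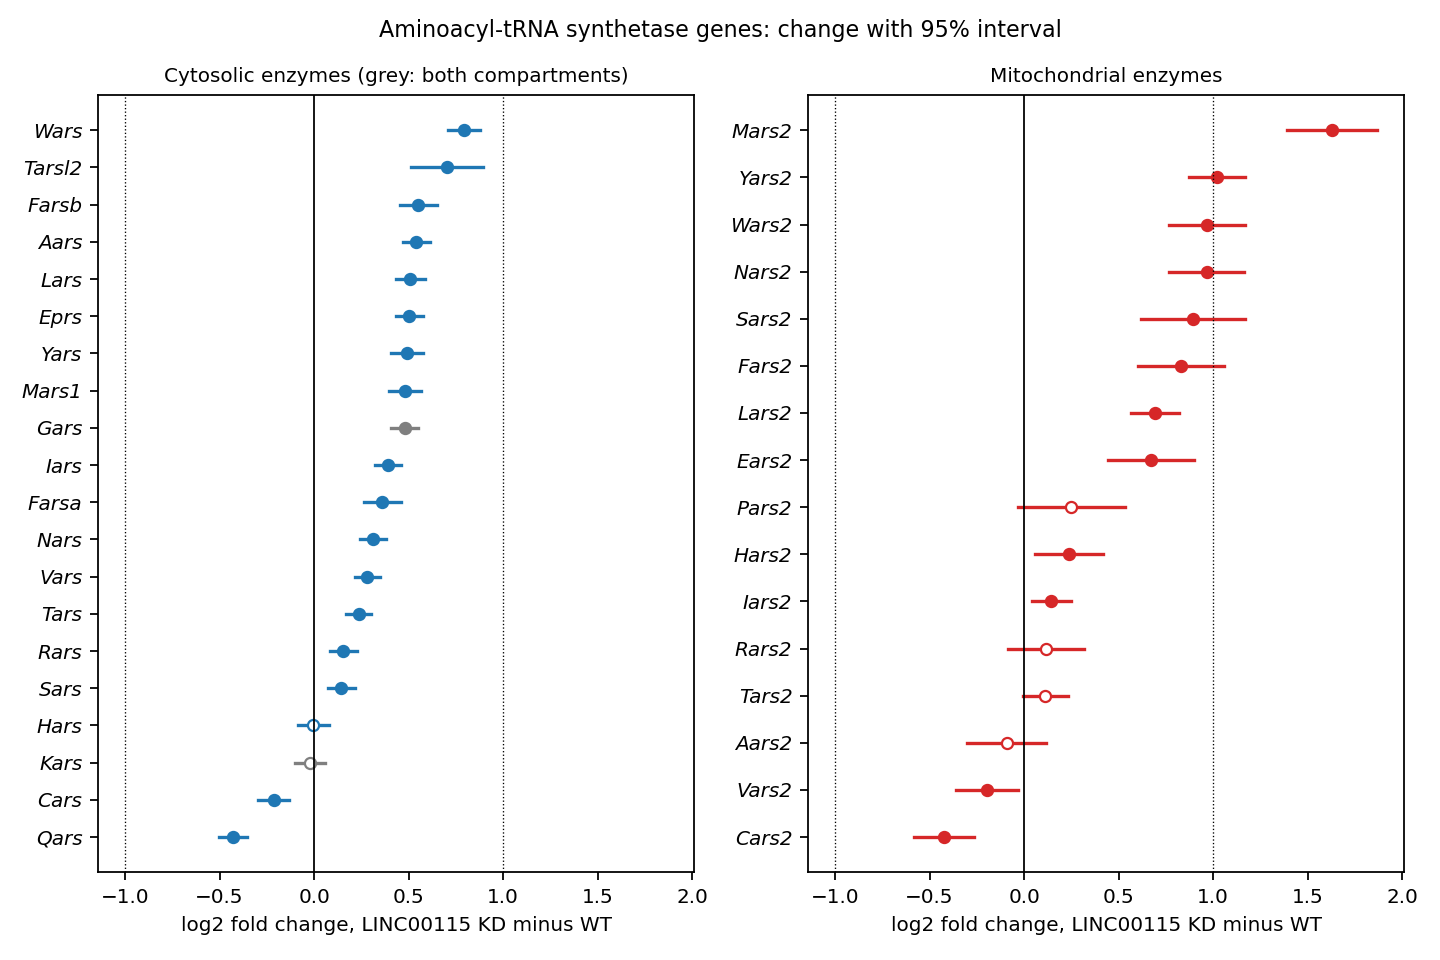
Log2 fold change of the synthetase genes reported by name, LINC00115 KD against WT, with bars for the 95% confidence interval from the edgeR fit on 3 libraries a group, filled symbols for genes at an adjusted p under 0.05 and dotted lines at a 2-fold change. Most points lie to the right of 0, with Mars2 at 1.63 and Yars2 at 1.02 farthest, and Qars (−0.43), Cars2 (−0.42), Cars (−0.21) and Vars2 (−0.20) to the left.

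Cytosolic synthetases rose in 16 of 19 cases, fell in 2 (Qars and Cars) and did not pass in 1 (Hars). Their median log2 fold change was 0.36, within a range from −0.43 to 0.79, and their summed level was 3707 ± 48.9 CPM (SD, n = 3) in WT and 4532 ± 45.4 CPM (n = 3) in LINC00115 KD. Wars, the tryptophanyl enzyme, whose gene is also a classical interferon-gamma target, rose most. It had 84.9, 87.8 and 85.0 CPM in the WT libraries and 143, 153 and 150.0 CPM after KD, which leaves a wide gap between the groups. The log2 fold change was 0.79 ± 0.042 (SE), a fold of 1.73 (edgeR adjusted p = 3.58e-18).

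Tarsl2 encodes a further threonyl-tRNA synthetase, close in sequence to Tars, so that reads of the pair may not have been fully separated. Its level was low, at 14.0, 11.5 and 14.2 CPM in WT and 22.4, 20.03 and 22.3 CPM in LINC00115 KD. All KD libraries lay above all WT libraries, with a log2 fold change of 0.70 ± 0.093 (edgeR adjusted p = 3.28e-08). The main threonyl gene, Tars, moved less, from 341.3 ± 4.82 to 402.2 ± 2.26 CPM (n = 3 each), a log2 fold change of 0.24 ± 0.032.

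The cytosolic phenylalanyl enzyme is built from an alpha and a beta subunit, encoded by Farsa and Farsb. Farsb had 62.1, 66.3 and 70.1 CPM in WT and 98.7, 97.2 and 94.99 CPM in LINC00115 KD. Farsa had 61.3, 63.0 and 64.8 CPM in WT and 80.0, 81.9 and 81.1 CPM in KD. Both subunits were thus higher in every KD library, by log2 fold changes of 0.55 ± 0.049 and 0.36 ± 0.048, and whether the subunits differ from each other was not tested.

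Aars, the alanyl enzyme, had 277, 254 and 267 CPM in WT and 384, 391 and 387 CPM in KD, a log2 fold change of 0.54 ± 0.035 (edgeR adjusted p = 8.04e-16). Next in order, with log2 fold changes between 0.48 and 0.51, were Lars, Eprs, Yars, Mars1 and Gars, and these 5 lay within their standard errors of 0.034 to 0.041 of each other. Iars (0.39), Nars (0.31), Vars (0.28), Rars (0.15) and Sars (0.14) also passed the test. Sars and Rars lay at the bottom of the higher genes, Sars with 349.9, 320.1 and 348.1 CPM in WT and 369.9, 374.6 and 380.0 CPM in KD.

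Qars, the glutaminyl enzyme, went the other way. Its level was 200.5, 195 and 193 CPM in WT and 143, 148 and 147 CPM in LINC00115 KD, with every KD library below every WT library. The log2 fold change was −0.43 ± 0.037 (edgeR adjusted p = 1.96e-12). Cars, the cysteinyl enzyme, had 183, 166 and 171 CPM in WT and 148, 149.8 and 151 CPM in KD, a log2 fold change of −0.21 ± 0.040 (edgeR adjusted p = 1.52e-05). Hars, the histidyl enzyme, showed no detectable difference, at 111, 117 and 118 CPM against 115, 116 and 115 CPM, and the 95% interval of its log2 fold change ran from −0.088 to 0.081 (edgeR adjusted p = 0.946).

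Of the enzymes shared by cytosol and mitochondria, Gars (glycyl) rose from 204.9 ± 2.60 to 285.5 ± 7.66 CPM (n = 3 each; log2 fold change 0.48 ± 0.035). Kars (lysyl) had 205, 229 and 228 CPM in WT and 214, 219.5 and 219 CPM in KD, so its groups overlapped. Its log2 fold change of −0.023 had a 95% interval from −0.10 to 0.057 (edgeR adjusted p = 0.606). The call for Kars rested on WT replicate 1, its lowest library, since without it the log2 fold change was −0.074 (edgeR adjusted p = 0.048).

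The genes were also split by membership of the multisynthetase complex. Of the 8 synthetases in the complex, among them Eprs, Iars, Kars, Lars, Mars1, Qars and Rars, 6 were higher, 1 was lower and 1 did not pass, with a median log2 fold change of 0.30. Of the 13 other cytosolic or shared ones, 11 were higher, 1 was lower and 1 did not pass, with a median of 0.36. By catalytic class, 7 of 9 cytosolic or shared class I genes were higher and 2 lower (median 0.39), and 9 of 11 class II genes were higher and 0 lower (median 0.31). Eprs carries a class I and a class II enzyme in 1 protein and was counted in neither.

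**Figure D2:**
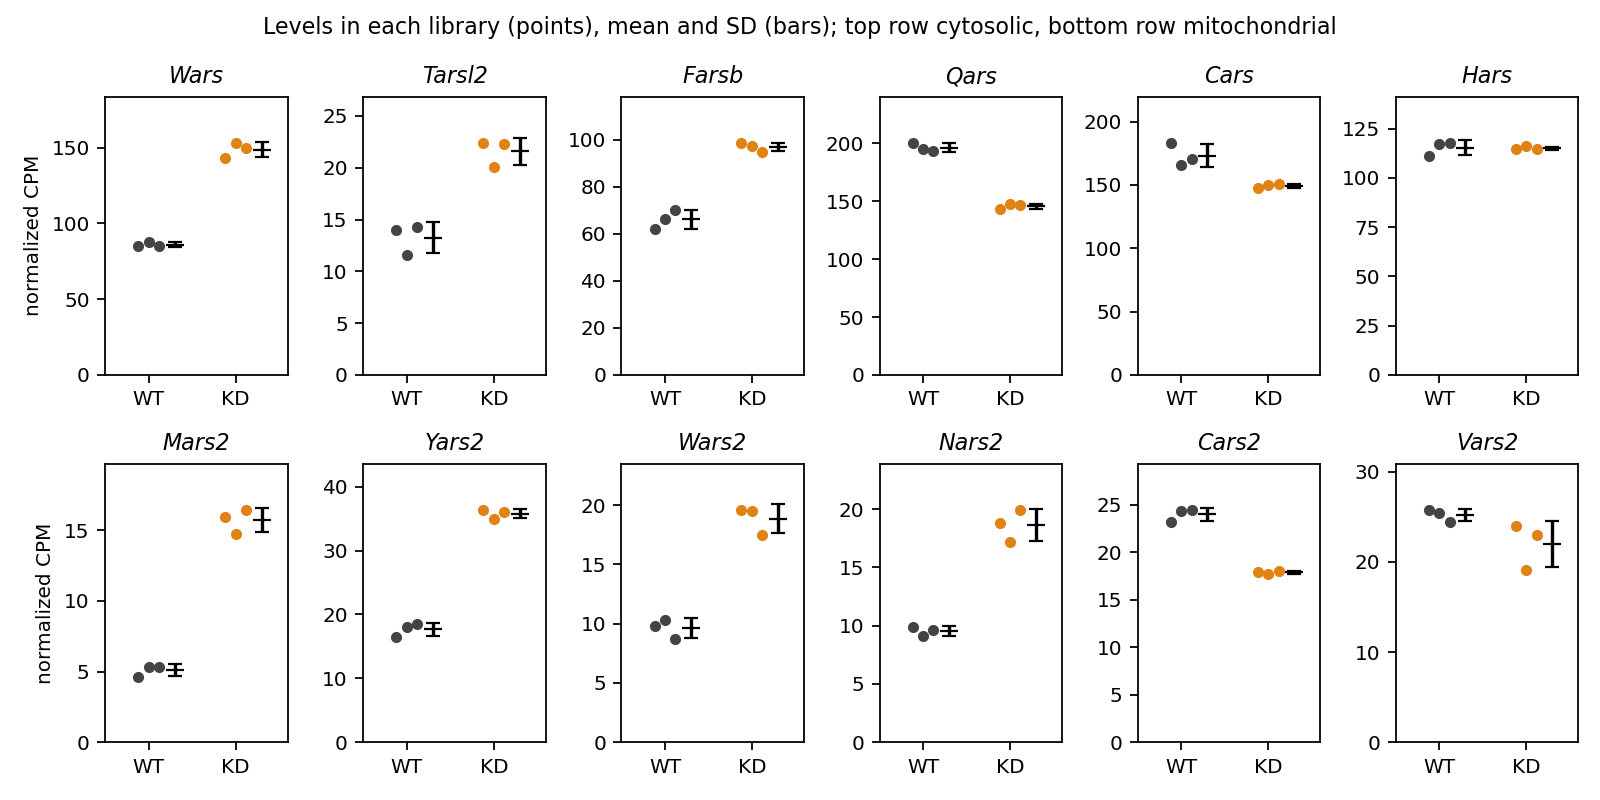
Level of 12 synthetase genes in each library, as normalized CPM on linear axes that start at 0, with 3 WT points (grey) and 3 LINC00115 KD points (orange) a gene and black bars for the mean and SD. Cytosolic genes are in the top row and mitochondrial genes in the bottom row, where Mars2 goes from 4.59 to 5.33 CPM in WT to 14.8 to 16.4 CPM in KD, whereas Hars in the top row overlaps between the groups.

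Mitochondrial synthetases were more mixed. Of 17 genes, 10 were higher, 3 lower, among them Cars2 and Vars2, and 4 did not pass (Aars2, Pars2, Rars2 and Tars2). Their log2 fold changes ran from −0.42 to 1.63 with a median of 0.25, and the middle of the distribution, from 0.11 to 0.90, was broader than that of the cytosolic genes, from 0.18 to 0.51. The mitochondrial genes also had fewer counts, and the median standard error of a log2 fold change was 0.098 for them and 0.038 for the cytosolic genes. Their summed level was 371.1 ± 12.5 CPM in WT and 469.7 ± 14.9 CPM in LINC00115 KD (n = 3 each).

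Mars2, the mitochondrial methionyl enzyme, showed the largest change of all synthetases. In GRCh37 the human gene occupies chr2:198570093-198573119 (plus strand). It had 4.59, 5.33 and 5.32 CPM in the WT libraries and 15.98, 14.8 and 16.4 CPM after KD, a fold of 3.09 and a log2 fold change of 1.63 ± 0.117 (edgeR adjusted p = 1.4e-14). Yars2, the tyrosyl enzyme, has its human gene at chr12:32880424-32908831 (GRCh37, minus strand). It had 16.5, 18.0 and 18.4 CPM in WT and 36.34, 34.99 and 36.04 CPM in KD, a log2 fold change of 1.02 ± 0.073 (edgeR adjusted p = 1.36e-14). Its place above 2-fold was narrow, and the log2 fold change was 0.97 without WT replicate 1 and 0.98 with upper quartile scaling.

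Wars2 and Nars2, the tryptophanyl and asparaginyl enzymes, followed closely. Wars2 had 9.80, 10.3 and 8.74 CPM in WT and 19.6, 19.5 and 17.4 CPM in KD, and Nars2 had 9.91, 9.09 and 9.61 CPM in WT and 18.8, 17.1 and 19.9 CPM in KD. Both about doubled, with no library of either group near the other. Sars2 (seryl) had 5.44, 5.96 and 8.26 CPM in WT and 13.4, 12.2 and 11.01 CPM in KD, a log2 fold change of 0.90 ± 0.135. Fars2 (phenylalanyl, a single chain in mitochondria) had 7.99, 9.04 and 9.43 CPM in WT and 15.9, 13.5 and 17.7 CPM in KD, a log2 fold change of 0.83 ± 0.111. Lars2 (0.69 ± 0.062) and Ears2 (0.67 ± 0.113) completed the group of 8 mitochondrial genes with log2 fold changes over 0.6. The spread in KD was wide for Lars2, at 79.5, 75.8 and 94.1 CPM, although all of it lay above the WT libraries at 52.8, 53.6 and 47.8 CPM.

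Hars2 and Iars2 passed the test with small changes of 0.24 ± 0.088 and 0.14 ± 0.052 on the log2 scale. These calls were not stable. Hars2 had an edgeR adjusted p of 0.0534 without WT replicate 2 and of 0.109 without WT replicate 3, and Iars2 had one of 0.178 without WT replicate 1 and of 0.0655 with upper quartile scaling.

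Cars2, the mitochondrial cysteinyl enzyme, fell most, from 23.2, 24.3 and 24.4 CPM in WT to 17.9, 17.7 and 18.0 CPM in LINC00115 KD, a log2 fold change of −0.42 ± 0.079 (edgeR adjusted p = 1.21e-05). Vars2, the valyl enzyme, had 25.8, 25.4 and 24.5 CPM in WT and 23.9, 19.1 and 23.0 CPM in KD. The groups did not overlap for Cars2 or Vars2, but the KD libraries of Vars2 were uneven. Its log2 fold change of −0.20 ± 0.082 (edgeR adjusted p = 0.0311) became −0.095 (0.303) without KD replicate 2, and it also missed the threshold without WT replicate 1 (0.073), without WT replicate 2 (0.0658) and with DESeq2 (0.0577).

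For the 4 mitochondrial genes that did not pass, the intervals leave room for changes of either small or moderate size. The 95% interval of the log2 fold change ran from −0.30 to 0.12 for Aars2, from −0.034 to 0.53 for Pars2, from −0.086 to 0.32 for Rars2 and from −0.0075 to 0.23 for Tars2. Tars2 passed without WT replicate 3 (log2 fold change 0.15, edgeR adjusted p = 0.0403).

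Reads could be shared where genes overlap. In GRCh37 the exons of 12 of the 38 human synthetase genes overlap another protein-coding gene, among them MARS1 with DDIT3, HARS1 with HARS2 and CARS2 with ING1. The use of strand in counting is not given in the sources used here, so values of these genes and their partners may not be fully separate.

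The mRNA levels of the 2 enzymes for the same amino acid were then compared within each library, as the log2 ratio of cytosolic to mitochondrial counts. This ratio cancels gene length when its change between groups is read. It was formed for 19 pairs, in which Eprs, Fars2 and Tars2 each served more than once. With 3 libraries a group an exact permutation test cannot give a p-value under 0.1, so the pairs are described by their values. In 6 pairs the ratio was lower in all LINC00115 KD libraries than in all WT libraries, in 7 pairs it was higher, and in 6 the groups overlapped. Among single genes tested, 37.8% were separated upwards and 37.8% downwards, so separation was common in these data. The share for ratios of other gene pairs was not computed. The differences of the ratio went in both directions, with a median of −0.16 on the log2 scale.

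The methionyl pair shifted most. The log2 ratio of Mars1 to Mars2 was 4.47, 4.39 and 4.33 in WT and 3.21, 3.36 and 3.17 in LINC00115 KD, a difference of −1.15, although both genes rose. Sars to Sars2 (−0.77), Nars to Nars2 (−0.65), Yars to Yars2 (−0.53), Farsa to Fars2 (−0.46) and Farsb to Fars2 (−0.27) moved the same way. In the opposite direction lay Aars to Aars2, at 4.48, 3.92 and 4.11 in WT and 4.74, 4.76 and 4.88 in KD, a difference of 0.63. Tarsl2 to Tars2 (0.59), Vars to Vars2 (0.48), Iars to Iars2 (0.24), Cars to Cars2 (0.21) and Tars to Tars2 (0.12) moved the same way.

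The valyl enzymes passed the test in opposite directions. Vars rose (log2 fold change 0.28 ± 0.032) while Vars2 fell with the reservation given above. For cysteine both enzymes fell, whereas for tryptophan and leucine both rose by similar amounts and the ratios overlapped between the groups.

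**Figure D3:**
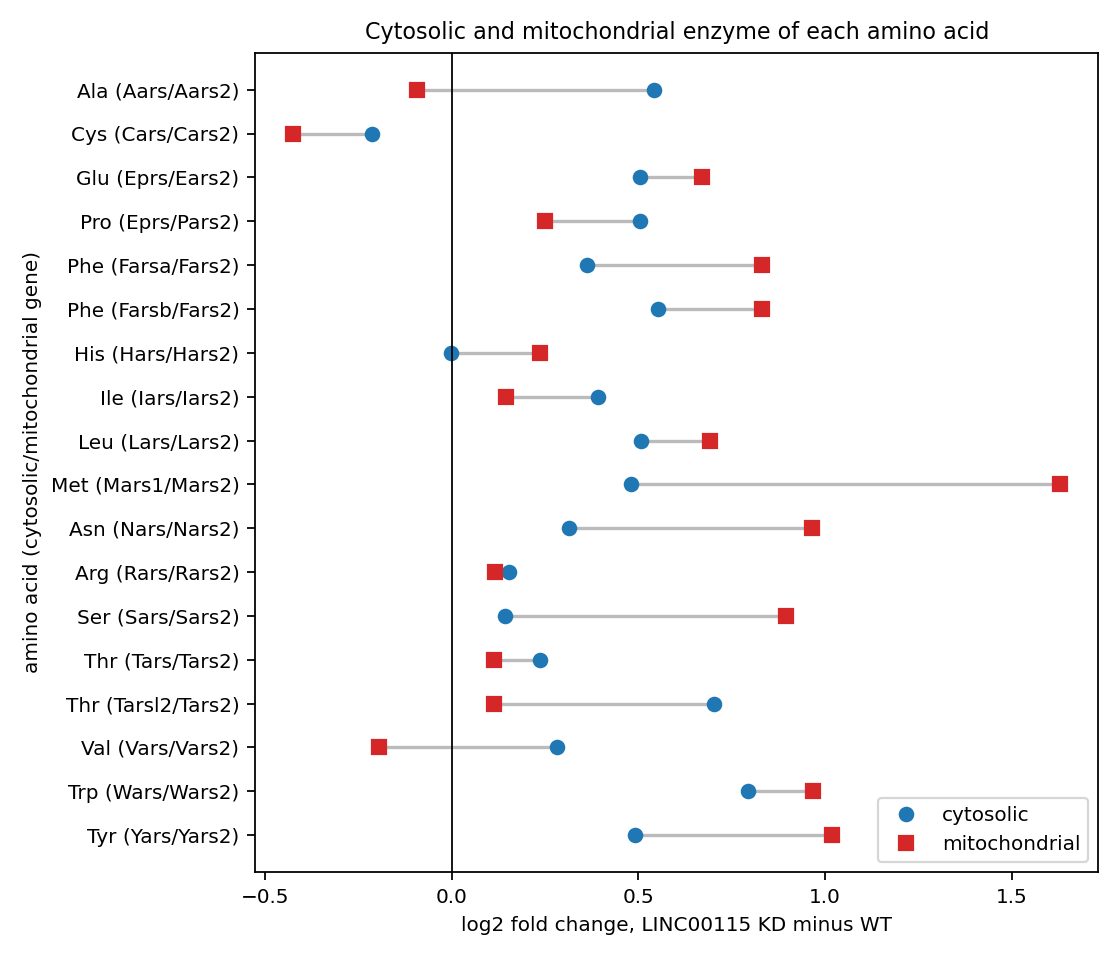
Log2 fold change of the cytosolic enzyme (blue circles) and of the mitochondrial enzyme (red squares), LINC00115 KD against WT, with 1 row for each pair shown and a grey line joining its genes. The mitochondrial square lies to the right in 10 pairs, with the longest line for Mars1 and Mars2 (0.48 and 1.63), and for Vars and Vars2 the symbols lie on opposite sides of 0.

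Sequences upstream of the synthetase genes were examined for the binding motif of ATF4 with a C/EBP partner, since the ATF4 pathway is the known regulator of many of these genes. The RefSeq windows of the human genes were used (GRCh38.p14, 300 bases, of which 250 lie before the transcript start), and 30 of the 38 genes had one. The element TGATGNAA, read on both strands, occurred in 7 of the 16 cytosolic or shared genes with a window and in 1 of the 14 mitochondrial ones. It occurs in 4.46% of the 27305 genes with a window. The sites are printed on the strand of the gene with the element in capitals. The likeness of the capitals follows from the search itself, and the bases beside them are given for reference.

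AARS1 (chr16:70289675-70289704, minus strand): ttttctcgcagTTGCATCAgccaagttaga
CARS1 (chr11:3057407-3057436, minus strand): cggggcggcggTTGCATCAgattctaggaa
GARS1 (chr7:30594834-30594863, plus strand): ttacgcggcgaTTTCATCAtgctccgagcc
IARS1 (chr9:92293692-92293721, minus strand): ttttcagcgcgTTGCATCAcctccgtgcgc
MARS1 (chr12:57488053-57488082, plus strand): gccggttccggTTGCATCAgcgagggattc
NARS1 (chr18:57621804-57621833, minus strand): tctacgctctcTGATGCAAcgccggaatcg
TARS1 (chr5:33440956-33440985, plus strand): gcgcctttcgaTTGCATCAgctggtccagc
YARS2 (chr12:32756076-32756105, minus strand): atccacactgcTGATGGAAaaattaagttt

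Most of these elements stood near the start of the transcript. The first base lay 2 bases before it in CARS1, 4 in MARS1, 13 in IARS1 and 33 in GARS1, and it was base 3 of the transcript in TARS1 and base 15 in NARS1. In AARS1 and YARS2 it lay farther away, at 187 and 197 bases before the start. The 7 cytosolic or shared genes with the element had log2 fold changes from −0.21 (Cars) to 0.54 (Aars), with 6 higher, 1 lower and a median of 0.39. The 9 with a window but without the element ranged from −0.43 (Qars) to 0.79 (Wars), with 6 higher, 1 lower, 2 that did not pass and a median of 0.15. Cytosolic genes without a window, among them Lars (0.51), Yars (0.49), Vars (0.28) and Tarsl2 (0.70), were in neither group. All of them were higher. The ranges overlapped widely. A match of letters in these human windows is a description and does not show that a factor binds there in these cells.

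Other motifs are shown for the gene with the largest increase in each compartment. The WARS1 window holds a GAS motif (TTCNNNGAA), known from interferon-gamma target genes, and a core of the interferon-stimulated response element (GAAANNGAA). They start 142 and 55 bases before the transcript. The MARS2 window holds an E-box (CACGTG), the motif of the Myc network, 11 bases before the start.

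WARS1 GAS (chr14:100375470-100375500, minus strand): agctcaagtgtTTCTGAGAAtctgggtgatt
WARS1 response element (chr14:100375383-100375413, minus strand): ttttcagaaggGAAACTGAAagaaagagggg
MARS2 E-box (chr2:197705347-197705374, plus strand): tgcgcctctcaCACGTGctgtcagaacg

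The GAS motif was found in 5 genes, with log2 fold changes of −0.21 (Cars), 0.24 (Tars), 0.79 (Wars), 0.25 (Pars2, which did not pass) and 0.97 (Wars2). The response element core was found in 4, with 0.48 (Gars), 0.39 (Iars), 0.79 (Wars) and 0.67 (Ears2). The E-box was also found in 4, with 0.39 (Iars), −0.42 (Cars2), 0.67 (Ears2) and 1.63 (Mars2). These are 16.7%, 13.3% and 13.3% of the 30 synthetase genes with a window, beside 9.38%, 9.86% and 8.77% of all genes with one. Motifs may lie side by side, as in IARS1, where the response element core starts 195 bases before the transcript and the E-box 186. Whether any of these motifs bears on the changes was not tested.

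The other genes of tRNA charging were followed as lists, written with earlier results of these data known, and are given as counts. Over all genes tested, 36.7% were higher and 36.7% lower, and every count below is to be read beside these shares. Of the 3 scaffold genes of the multisynthetase complex, Eef1e1 (AIMP3) rose from 50.7 ± 3.69 to 78.2 ± 2.90 CPM, a log2 fold change of 0.62 ± 0.054, whereas Aimp1 (−0.060) and Aimp2 (0.084) did not pass. Aimp2 passed without KD replicate 1 (log2 fold change 0.14, edgeR adjusted p = 0.0335). Of the 4 genes that clear mischarged tRNAs, 2 were higher, Dtd1 (0.57 ± 0.107), which removes D-amino acids, and Aarsd1 (0.56 ± 0.065), which removes misplaced serine from alanine tRNA, and 2 did not pass.

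Of 7 genes that convert an amino acid already bound to its tRNA or supply that step, 4 were higher and 3 did not pass. Qrsl1, the catalytic subunit of the amidotransferase that makes glutaminyl-tRNA in mitochondria, which have no glutaminyl enzyme of their own, was higher by over 2-fold. It had 4.36, 5.35 and 5.61 CPM in WT and 14.2, 11.7 and 13.1 CPM in KD, a log2 fold change of 1.35 ± 0.129 (edgeR adjusted p = 2.41e-11). Thus mitochondrial Qrsl1 was higher in every KD library while the cytosolic glutaminyl gene Qars was lower in every one. The genes of the other amidotransferase subunits did not move alike. Gatb was higher by less (log2 fold change 0.32 ± 0.115). Gatc did not pass (−0.093 ± 0.072, edgeR adjusted p = 0.245), and its KD libraries all lay below the WT libraries. Sephs2, which makes the selenium donor for selenocysteine, rose from 32.5 ± 1.71 to 58.6 ± 1.37 CPM.

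Genes of tRNA maturation and export were divided, with 9 of 17 higher, 3 lower and 5 that did not pass (median log2 fold change 0.16). These are 52.9% higher and 17.6% lower, beside 36.7% each way over all genes tested. Rpp40, a subunit of RNase P, was highest at 0.97 ± 0.117, and Elac2, which trims the 3′ end, followed at 0.89 ± 0.066.

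Elongation factor genes of the cytosol moved against most synthetase genes. All 6 cytosolic elongation factor genes (Eef1a1, Eef1b2, Eef1d, Eef1g, Eef2 and Eif5a) were lower, with a median log2 fold change of −0.34, and their summed level went from 12560 ± 259 to 9543 ± 103 CPM (n = 3 each). Eef1a1, which carries the charged tRNA to the ribosome, had 6682, 6916 and 6996 CPM in WT and 4725, 4920 and 4861 CPM in KD, a log2 fold change of −0.51 ± 0.026. Eef1g, a subunit of its exchange factor, fell by 0.64 on the log2 scale (SE 0.033). Of 9 mitochondrial translation factor genes, 5 were higher, 3 lower and 1 did not pass. These are 55.6% higher and 33.3% lower, and the lower share was close to the 36.7% of all genes tested. The largest changes were in Mtif2 (−0.64 ± 0.059), the initiation factor, and Tsfm (0.56 ± 0.090), the exchange factor of elongation.

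**Figure D4:**
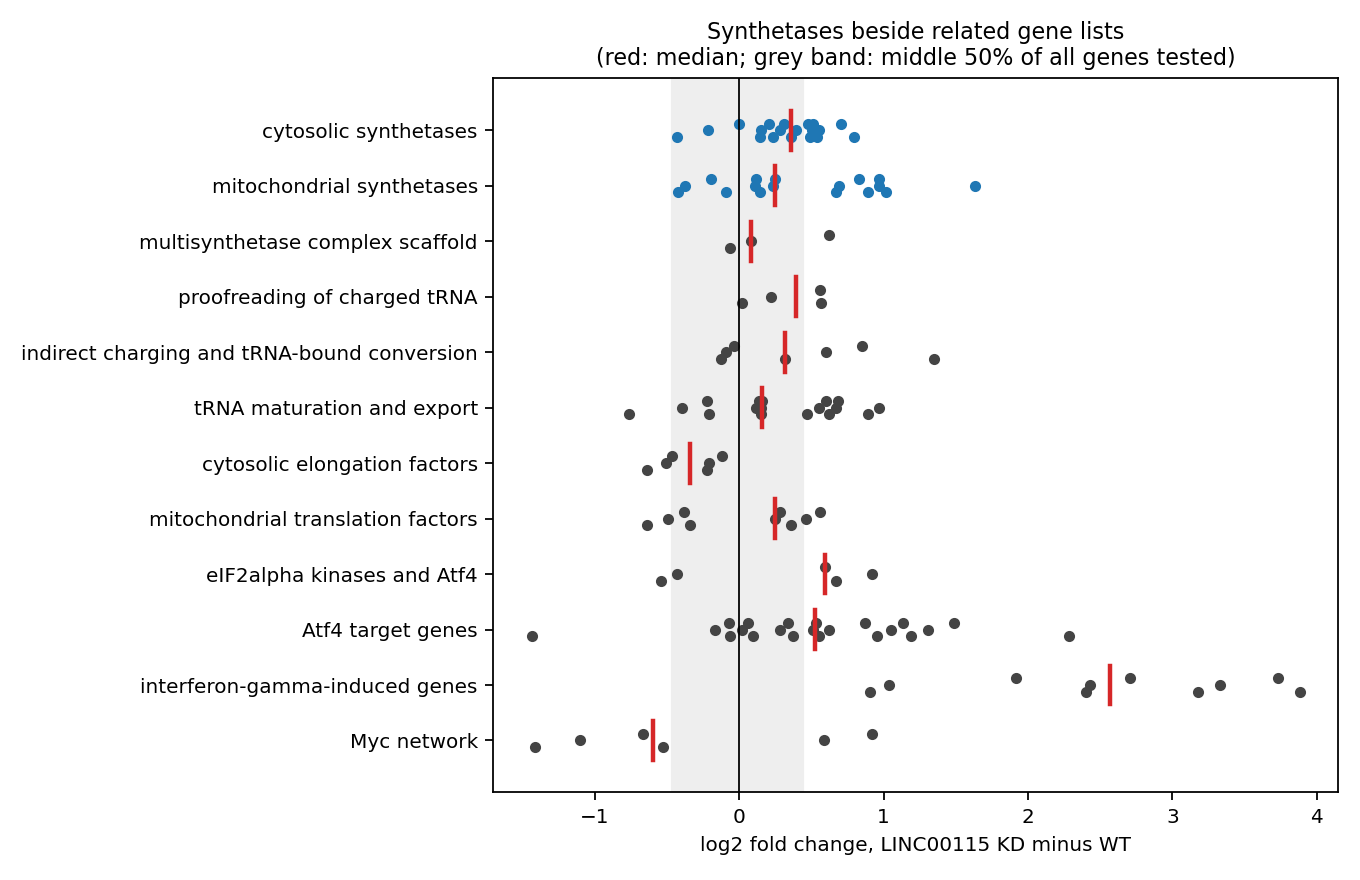
Log2 fold change of each gene in the synthetase groups and the related gene lists, LINC00115 KD against WT, with 1 point a gene, a red bar at each list's median and a grey band over the middle 50% of all genes tested. The medians run from −0.60 (Myc network) and −0.34 (cytosolic elongation factors) through 0.36 (cytosolic synthetases) and 0.52 (Atf4 target genes) to 2.57 (interferon-gamma-induced genes).

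Atf4 and its kinases were examined next. Atf4 mRNA had 356, 330.1 and 356 CPM in WT and 655, 653 and 661 CPM in LINC00115 KD, a log2 fold change of 0.92 ± 0.034 (edgeR adjusted p = 8.43e-23). The kinases that act on eIF2alpha were split. Eif2ak1 (0.67), activated when heme is short, and Eif2ak2 (0.59), activated by double-stranded RNA, were higher, and Eif2ak4 (−0.54), activated by uncharged tRNA, and Eif2ak3 (−0.43), activated by endoplasmic reticulum stress, were lower. These are mRNA levels and give no phosphorylation state.

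Of 22 Atf4 target genes outside the synthetases, 16 were higher, 2 lower and 4 did not pass, with a median log2 fold change of 0.52. Those higher by over 2-fold were mainly amino acid transporters. Slc7a11, the cystine transporter, had a log2 fold change of 2.29 ± 0.041, Slc7a1, which carries arginine and lysine, 1.49 ± 0.035, and Slc7a5 and Slc3a2, which together carry leucine and other large amino acids, 1.19 ± 0.041 and 1.14 ± 0.036. Atf5 (1.31 ± 0.053) and the asparagine synthetase gene Asns (1.05 ± 0.039) were the others. Ddit4, an inhibitor of mTORC1 signalling, was lower by over 2-fold (−1.44 ± 0.046). Ddit3, whose human exons overlap those of MARS1 on the other strand, had 35.8 ± 3.54 CPM in WT and 31.8 ± 1.12 CPM in KD, a log2 fold change of −0.17 (edgeR adjusted p = 0.0311), and this call was lost with DESeq2 (adjusted p = 0.0587) and on omitting WT replicate 1, WT replicate 3, KD replicate 1 or KD replicate 2 (edgeR adjusted p from 0.106 to 0.175).

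Wars belongs to the interferon-gamma response as well as to tRNA charging. Of 12 other interferon-gamma-induced genes, 10 could be tested and all 10 were higher, 9 of them by over 2-fold, with a median log2 fold change of 2.57. Psmb9 (3.88 ± 0.119), an immunoproteasome subunit, and Cxcl10 (3.73 ± 0.083), a chemokine, changed most. The change of Wars, 0.79, lay below that of each of these 10 genes, of which Irf1 was lowest at 0.91 ± 0.046.

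In the Myc network, whose factors read the E-box, 6 of 7 genes could be tested. Myc had 194, 188 and 202 CPM in WT and 368, 356 and 380.1 CPM in LINC00115 KD (log2 fold change 0.92 ± 0.036), and its partner Max was also higher (0.59). The other 4 were lower, with Mxd1 (−1.41 ± 0.129), an antagonist of Myc, and Mycl (−1.10 ± 0.286) lower by over 2-fold.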

How the data were processed

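The authors mapped the reads with HISAT2 and deposited 1 table of raw counts per gene, not normalized. The paper's methods name hg19, the submitters' processing notes hg38, featureCounts and DESeq2. Which annotation was counted, and whether by strand, is not given in the sources used here. Library preparation is also named differently in the labels and the methods. Columns of other samples number 0.

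Testing used edgeR 4.0.16 under R 4.3.3: filterByExpr (minimum count 10, minimum total 15), TMM, quasi-likelihood test with the group alone, Benjamini-Hochberg over 13497 genes. CPM are TMM-scaled. Standard errors are the log2 fold change over the square root of F. Ratios of pairs add 0.5 counts. The thresholds (adjusted p 0.05, fold 2) follow the paper's methods. Alternatives were other scalings and filters, DESeq2 1.42.0, a replicate block and each library left out. The pipeline was tested on simulated data.

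The synthetases and lists were chosen with earlier results of these data known. Values per library are given for the 3 largest changes each way in each compartment, and in lists for genes over 2-fold or the 2 largest. Others were chosen after their values were seen. Within groups, counts differed by more than counting error allows (chi-square divided by its degrees of freedom 3.94 to 7.96), so no library was a duplicate. Some genes counted in the totals and lists are not reported here by name.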

Additional observations from a re-analysis of the deposited data

How the results depend on the processing

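Over 13 alternative fits, the synthetase genes gave 484 values on the same side of the threshold as reported, 8 that missed it and 2 that newly passed it. Of the 484, 474 had the same sign and 10 the other sign, in Hars (7 fits), Kars (2) and Aars2 (1), none of which passed there, with values up to 0.0133. Among genes past the threshold 0 changed sign. The 10 changes of call concern Hars2, Iars2, Vars2, Kars and Tars2. The number of synthetases higher by over 2-fold, all mitochondrial, went from 2 to 1 with upper quartile scaling, and ranged from 1 (without WT replicate 1) to 3 when each library was left out, where Wars2, Nars2 or Sars2 joined Mars2 and Yars2. For the scaffold genes the number higher ranged from 1 to 2 (2 without KD replicate 1), and for Atf4 target genes the number lower was 1 with DESeq2 and ranged from 1 to 2 when each library was left out (1 without WT replicate 1, WT replicate 3, KD replicate 1 or KD replicate 2). With the replicate block, 27 synthetases were higher and 5 lower, and the block changed no call. Replicate numbers did not pair the samples, since the correlations of same-numbered deviations were −0.00438, −0.011 and 0.00907 over 10747 genes. The median of all genes moved from −0.047 with upper quartile scaling to 0.014 without a filter. The mitochondrial genes, which had fewer counts, had standard errors up to 0.139 on the log2 scale. The part of the lung, kidney and leukocyte genes that were higher in the KD libraries was not tested.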
